A study of Mus musculus with 6 samples.

Results

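Retinal ganglion cells (RGCs), whose axons form the optic nerve, are specified and divided into subtypes by a set of transcription factors, and 10 of these are described here in whole retina after injection of saline or microbeads. The genes were taken by symbol from the deposited table of 31169 genes: *Pou4f1*, *Pou4f2*, *Pou4f3*, *Isl1*, *Ebf1*, *Ebf3*, *Eomes*, *Tbr1*, *Satb1* and *Irx2*. All 10 were present, and all 10 were among the 17707 genes with enough counts to be tested. Poly(A) RNA was sequenced from C57BL/6 mice that received saline or microbeads of 15 μm diameter in the anterior chamber at 1 month of age, and retinas were taken 4 weeks later, at 2 months. Beads in the anterior chamber hinder the outflow of aqueous fluid and raise intraocular pressure, and the saline group had the same injection without beads. According to the study's methods the mice were male and both eyes were injected. Each group held 3 libraries, and the comparison asks how the levels of these genes in whole retina differ between the groups at that time.

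During development RGCs arise from progenitors that express *Atoh7*, which is followed by *Pou4f2* and *Isl1*, and these act together on genes of RGC differentiation. The Pou4f factors remain on in most mature RGCs, where they are known for roles in axon growth and survival, and they are widely used to count RGCs. The other members mark or specify smaller sets of RGCs: *Eomes* the intrinsically photosensitive cells, *Tbr1* a group of OFF cells, and *Satb1* the ON-OFF direction-selective cells. In whole retina, fewer RGCs and less RNA per RGC cannot be told apart.

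No member passed the test between saline and microbead retina. With edgeR's quasi-likelihood test, 0 of 10 members had an adjusted p under 0.05, beside 12.8% of all genes tested (6.46% higher and 6.31% lower in microbead retina). At an unadjusted p under 0.05, 0 of 10 members passed with edgeR, beside 31.4% of all genes tested, and 0 with limma-voom, beside 31.6%. With DESeq2, run without the filter on low counts, the number was also 0, beside 19.9% of 31147 genes. The saline and microbead libraries overlapped for every member, whereas the groups did not overlap for 37.8% of the genes tested. The median log2 fold change of the members, microbead over saline, was 0.22, beside -0.03 over all genes tested. Much of the spread came from saline replicate 1, in which 9 of 10 members had their lowest level of the 6 libraries, so the comparisons between the groups are also given without that library.

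Total counts per library ran from 36085737 to 46481382 in saline and from 13574949 to 19834366 in microbead retina, so that 3 counts, the limit that a count of 0 allows, stood for 0.0622 to 0.217 counts per 1000000 (CPM). The running numbers in the library names are lower for every saline sample than for any microbead sample. Whatever these numbers stand for cannot be told apart from the treatment. Saline replicate 1 stood apart from the other libraries. The 10 microglial genes summed to 260 CPM there, against 84.5 and 123 CPM in the other saline libraries and 63.7 to 141 CPM in microbead retina. Summed over 8 genes of natural killer and T cells, saline replicate 1 held 15.2 CPM, the other saline libraries 0.415 and 0.827 CPM, and the microbead libraries from 0 to 1.37 CPM, with all 8 at 0 in microbead replicate 3. The 8 genes of the pigment epithelium, a layer that can adhere to dissected retina, summed to 14.8 CPM there, against 61.3 and 258 CPM in the other saline libraries and 118 to 144 CPM in microbead retina. Rod genes, the defining markers of most of the retina's cells, were high throughout, with a sum over 10 genes of 58550 to 84850 CPM. How far tissue composition entered the levels of the members was not tested.

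**Figure D1:**
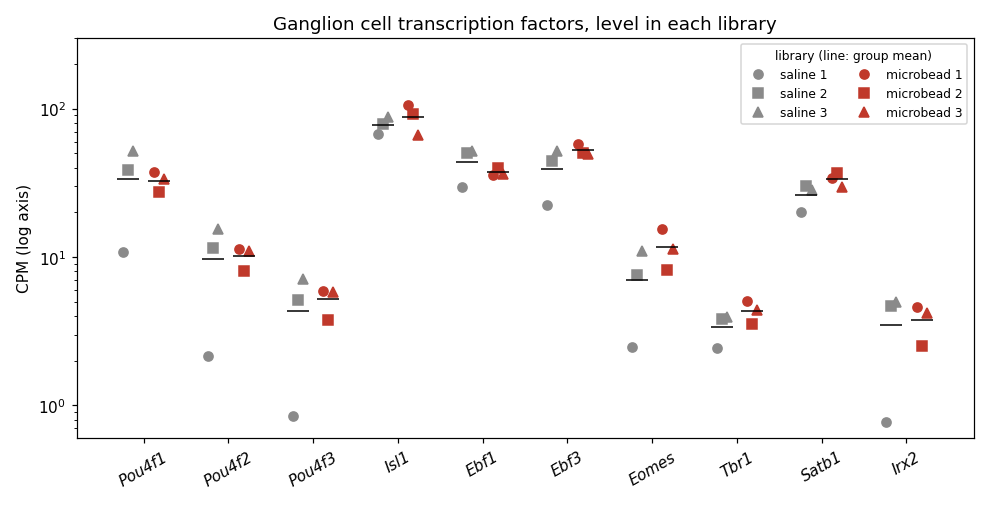
Level of each of the 10 transcription factors in each library, in CPM on a log axis, for saline (grey) and microbead (red) retina, with lines at the group means (n = 3 libraries each). Saline replicate 1 (grey circles) lies below every other library for every gene except *Isl1*, and for *Pou4f2*, *Pou4f3* and *Irx2* it lies at 2.15, 0.850 and 0.770 CPM.

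Promoter sequence is shown for *Pou4f1*, *Pou4f2* and *Irx2*, 3 of the members whose levels differed most between saline libraries, and for *Isl1*, whose levels differed least. The sequences are the 250 bases before the annotated start from the RefSeq promoter table (GRCm38.p6), read 5′ to 3′ on the gene's strand. Capitals mark CANNTG, the E-box letters to which factors such as *Atoh7* and *Neurod2* can bind. The windows lie at chr14:104468000-104468249 on the minus strand for *Pou4f1*, chr8:78436648-78436897 on the minus strand for *Pou4f2*, chr13:72628570-72628819 on the plus strand for *Irx2* and chr13:116309689-116309938 on the minus strand for *Isl1*.
Pou4f1: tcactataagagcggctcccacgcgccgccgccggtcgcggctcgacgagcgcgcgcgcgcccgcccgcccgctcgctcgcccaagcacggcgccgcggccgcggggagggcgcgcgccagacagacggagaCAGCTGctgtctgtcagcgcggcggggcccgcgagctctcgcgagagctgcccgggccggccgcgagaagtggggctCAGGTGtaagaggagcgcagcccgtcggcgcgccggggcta
Pou4f2: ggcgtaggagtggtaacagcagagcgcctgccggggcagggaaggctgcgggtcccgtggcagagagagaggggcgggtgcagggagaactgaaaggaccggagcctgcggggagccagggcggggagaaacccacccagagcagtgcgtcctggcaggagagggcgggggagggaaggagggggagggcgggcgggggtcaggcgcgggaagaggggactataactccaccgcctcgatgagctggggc
Irx2: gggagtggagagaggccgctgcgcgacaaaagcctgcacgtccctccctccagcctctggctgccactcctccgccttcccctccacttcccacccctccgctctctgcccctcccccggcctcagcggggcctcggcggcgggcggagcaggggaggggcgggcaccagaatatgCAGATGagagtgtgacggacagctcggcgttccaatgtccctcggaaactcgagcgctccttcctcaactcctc
Isl1: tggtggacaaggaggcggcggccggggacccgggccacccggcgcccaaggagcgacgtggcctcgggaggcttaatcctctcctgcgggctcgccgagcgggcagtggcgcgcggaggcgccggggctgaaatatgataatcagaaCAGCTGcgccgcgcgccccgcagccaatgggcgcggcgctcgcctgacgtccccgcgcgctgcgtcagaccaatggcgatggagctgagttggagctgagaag

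CANNTG, which reads the same on both strands, occurred at 2 places in the *Pou4f1* window, at 1 place in those of *Irx2* and *Isl1*, and nowhere in that of *Pou4f2*. Over the 14 windows of this length listed for 9 of the 10 members, 7 held CANNTG, beside 66.2% of the 32851 windows in the table. TAATTA, the letters of a homeodomain site and the same on both strands, was in 1 of the 14 windows, that of *Tbr1*, beside 4.84% of all windows. GC content was 78.0% for *Pou4f1*, 70.8% for *Pou4f2*, 68.4% for *Irx2* and 71.2% for *Isl1*, all above the median of 52.4% over all windows. These letter matches are descriptions of the windows, and neither motif set the members with a low level in saline replicate 1 apart from *Isl1*.

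The Pou4f genes encode POU-homeodomain factors that share much of their DNA-binding region and overlap in the RGCs they mark. *Pou4f1* (ENSMUSG00000048349, chr14:104461676-104467999, minus strand) was at 10.8, 38.5 and 51.6 CPM in saline replicates 1 to 3 and at 37.1, 27.2 and 33.6 CPM in microbead replicates 1 to 3. The microbead values thus fell between the lowest and the highest saline value, and close to one another. Group means were 33.6 ± 20.8 CPM in saline and 32.6 ± 5.01 CPM in microbead retina (SD, n = 3), a log2 fold change of -0.04 (SE 0.44; 95% interval -1.04 to 0.95; edgeR adjusted p = 0.961).

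*Pou4f2* (ENSMUSG00000031688, chr8:78433010-78436645, minus strand), needed for the differentiation and survival of most RGCs, was at 2.15, 11.4 and 15.5 CPM in the saline libraries and at 11.3, 8.02 and 10.98 CPM in the microbead libraries. Its log2 fold change was 0.06 (SE 0.55; 95% interval -1.18 to 1.29; edgeR adjusted p = 0.958). *Pou4f3* (ENSMUSG00000024497), found in a smaller set of RGCs and in the hair cells of the inner ear, was at 0.850, 5.10 and 7.08 CPM in saline and at 5.92, 3.75 and 5.85 CPM in microbead retina. For both genes 1 saline library was far below all other libraries, and the highest library was also a saline one. The log2 fold change of *Pou4f3* was 0.26 (SE 0.61; 95% interval -1.10 to 1.61; edgeR adjusted p = 0.809). Saline replicate 1 held 407 counts of *Pou4f1*, 81 of *Pou4f2* and 32 of *Pou4f3*, and the exact 95% Poisson interval of the last, 0.581 to 1.20 CPM, ended below the level in every other library. Such intervals cover counting error only.

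Set against one another per length of exon, *Pou4f1* made up most of the RNA of the family in every library. Its share of the summed CPM per kilobase of exon (RPKM) of the 3 Pou4f genes was 69.3%, 59.1% and 58.6% in saline replicates 1 to 3 and 57.0%, 58.9% and 55.1% in microbead replicates 1 to 3. *Pou4f3* had shares of 10.6%, 15.3% and 15.6% in saline and 17.7%, 15.8% and 18.7% in microbead retina. Saline replicate 1 therefore held not only less of all 3 genes but a different mixture, with the share of *Pou4f1* highest there and the shares of *Pou4f2* and *Pou4f3* lowest. These shares were not tested.

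*Isl1* (ENSMUSG00000042258, chr13:116298281-116309689, minus strand) encodes a LIM-homeodomain factor that acts with *Pou4f2* in RGCs, and it is also made in starburst amacrine and ON bipolar cells. It was the most abundant member per length of exon, and its level was 67.3, 79.2 and 87.6 CPM in saline and 105.6, 92.7 and 66.1 CPM in microbead retina. It was also the one member whose lowest library was a microbead one, replicate 3, and its saline libraries lay within 1.30-fold of one another. The log2 fold change was 0.18 (SE 0.21; 95% interval -0.29 to 0.64; edgeR adjusted p = 0.602). Beside it, the 12 ON bipolar genes summed to 2281 to 2571 CPM in saline and 2386 to 2849 CPM in microbead retina. Much of that sum was *Gnb3* and *Gnao1*, at means of 570.6 and 471.6 CPM in saline and 675.9 and 516.2 CPM in microbead retina. *Gnb3* was at 958.3, 360.0 and 393.5 CPM in saline replicates 1 to 3. Of the 12, edgeR called 1 higher and 1 lower, beside 12.8% of all genes tested. Starburst amacrine genes, 8 in number, summed to 136 to 253 CPM in saline and 107 to 124 CPM in microbead retina. Of the 8, edgeR called 2 lower after microbead injection, *Sox2* and *Megf10*, beside the same 12.8%. In whole retina, which cells held the lower *Sox2* and *Megf10* RNA cannot be told. The median log2 fold change of the 8 was -0.50. In that list *Chat*, *Slc18a3* and *Slc5a7* had log2 fold changes of -0.25, -0.27 and -0.21 (edgeR adjusted p from 0.561 to 0.766). No gene of these lists was at 0 in any library, and the part of either cell type in the level of *Isl1* was not tested.

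The Ebf genes encode helix-loop-helix factors that act in neuronal differentiation, and both members of the family described here are expressed in RGCs and in some amacrine cells. *Ebf1* (ENSMUSG00000057098, chr11:44617317-45008091, plus strand) was at 29.5, 50.1 and 52.1 CPM in saline and at 35.7, 39.9 and 36.2 CPM in microbead retina. *Ebf3* (ENSMUSG00000010476, chr7:137193673-137314445, minus strand) was at 22.4, 44.2 and 51.4 CPM in saline and at 57.7, 50.2 and 49.3 CPM in microbead retina. Per length of exon, *Ebf1* had a mean of 4.50 ± 1.28 RPKM and *Ebf3* one of 4.27 ± 1.64 RPKM in saline (SD, n = 3), while the levels in microbead retina were 3.82 ± 0.234 RPKM and 5.68 ± 0.503 RPKM. *Ebf1* had a log2 fold change of -0.24 (SE 0.23; 95% interval -0.75 to 0.27; edgeR adjusted p = 0.510), the one fold change among the members, beside that of *Pou4f1*, that was below 0. For *Ebf3* it was 0.41 (SE 0.28; 95% interval -0.21 to 1.03; edgeR adjusted p = 0.339). *Ebf1* is also expressed in pericytes. Beside it, 12 genes of pericytes and smooth muscle summed to 1114 to 1342 CPM in saline and 1011 to 1165 CPM in microbead retina. Of the 12, edgeR called 2 lower, *Pdgfrb* and *Notch3*, and 0 higher, beside 12.8% of all genes tested. Most of the sum of these 12 was *Vtn*, at 824 to 1112 CPM. The other 11 genes summed to 151 to 233 CPM in saline and 119 to 187 CPM in microbead retina. The median of the log2 fold changes of all 12 was -0.55. Amacrine genes, 12 in number, summed to 1480 to 2789 CPM in saline and 2054 to 2298 CPM in microbead retina, with 0 called, and 4 of the 12 at an unadjusted edgeR p under 0.05, beside 31.4% of all genes. What these cells added to the Ebf levels was not tested.

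The T-box factors *Eomes* and *Tbr1* mark separate RGC subtypes. *Eomes* (ENSMUSG00000032446, chr9:118478212-118486132, plus strand), which is needed to form and maintain intrinsically photosensitive RGCs, was at 2.47, 7.53 and 11.04 CPM in saline and at 15.4, 8.16 and 11.2 CPM in microbead retina. Its fold change was the largest of the 10, at 0.73 on the log2 scale (SE 0.47; 95% interval -0.33 to 1.79; edgeR adjusted p = 0.323), with saline replicate 3 above microbead replicate 2. *Tbr1* (ENSMUSG00000035033, chr2:61802930-61814114, plus strand) was at 2.44, 3.84 and 3.91 CPM in saline and at 5.04, 3.54 and 4.42 CPM in microbead retina. Microbead replicate 2 again lay inside the saline range, and the log2 fold change of *Tbr1* was 0.35 (SE 0.33; 95% interval -0.39 to 1.09; edgeR adjusted p = 0.499).

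*Satb1* (ENSMUSG00000023927, chr17:51736187-51833290, minus strand) encodes a chromatin organiser that shapes the dendrites of direction-selective RGCs. It was at 20.03, 30.1 and 28.1 CPM in saline and at 33.9, 36.7 and 29.6 CPM in microbead retina. The groups met only where saline replicate 2 exceeded microbead replicate 3, and *Satb1* had the smallest adjusted p of the members, 0.262 by edgeR, at a log2 fold change of 0.36 (SE 0.20; 95% interval -0.10 to 0.81). *Irx2* (ENSMUSG00000001504, chr13:72628820-72634198, plus strand), an Iroquois homeobox factor found in RGC subsets, was at 0.770, 4.69 and 4.96 CPM in saline and at 4.58, 2.53 and 4.16 CPM in microbead retina. Its log2 fold change was 0.12 (SE 0.59; 95% interval -1.22 to 1.45; edgeR adjusted p = 0.917). Saline replicate 1 held 29 *Irx2* counts, the lowest count of any member in any library, with an exact 95% Poisson interval of 0.516 to 1.11 CPM that ended below all other libraries.

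The members share little transcript sequence with other genes. No stretch of 100 bases in the annotated transcripts of any member recurred in transcripts of another locus, and of 31-base stretches 0.0253% to 2.08% did. Exons of *Ebf3*, *Eomes* and *Satb1* overlap genes on the opposite strand, *Gm45278*, *Gm33460* and *Gm6934*, whose own counts per library were 4 to 31, 4 to 14 and 0 to 5. *Satb1* also overlaps *Gm36931* on its own strand, which had 0 to 2 counts per library.

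Compared per length of exon, the members spanned a wide range of levels. In saline retina mean RPKM were 19.7 for *Isl1*, 7.20 for *Pou4f1*, 4.50 for *Ebf1*, 4.27 for *Ebf3*, 3.03 for *Pou4f2*, 1.81 for *Pou4f3*, 1.69 for *Eomes*, 1.37 for *Satb1*, 1.06 for *Irx2* and 0.619 for *Tbr1*. *Isl1* stood above *Pou4f1*, *Ebf3* above *Pou4f2*, and *Pou4f2* above *Pou4f3* in 6 of 6 libraries. Other neighbours in this order were not separated in every library. *Pou4f1* exceeded *Ebf1*, *Eomes* exceeded *Satb1*, *Satb1* exceeded *Irx2* and *Irx2* exceeded *Tbr1* in 5 of 6. The order of *Ebf1* and *Ebf3*, and that of *Pou4f3* and *Eomes*, held in 2 of 6 libraries. In microbead retina the means of those pairs stood the other way, at 3.82 RPKM for *Ebf1* and 5.68 for *Ebf3*, and at 2.16 RPKM for *Pou4f3* and 2.79 for *Eomes*.

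The members differed in how far saline replicate 1 fell below the other saline libraries. As a percentage of the mean of saline replicates 2 and 3, its level was 13.96% for *Pou4f3*, 16.0% for *Pou4f2* and for *Irx2*, 24.0% for *Pou4f1* and 26.6% for *Eomes*. The other 5 members were nearer to it, at 46.9% for *Ebf3*, 57.7% for *Ebf1*, 63.1% for *Tbr1*, 68.8% for *Satb1* and 80.7% for *Isl1*. The members most reduced there were thus the 3 Pou4f genes, *Irx2* and *Eomes*, and the least reduced was *Isl1*. The cause of this order was not tested. That library held the lowest level of the 6 for 9 of 10 members, beside 12.2% of all genes tested. Of the 20 RGC markers that are not transcription factors, 18 had their lowest level there, with a median of 37.4% of the other saline libraries, and their sum was 778 CPM there and 1530 to 2220 CPM elsewhere. Among these, *Rbpms*, an RNA-binding protein of RGCs, was at 24.2%, and *Slc17a6*, the vesicular glutamate transporter of RGCs, at 19.1%. Medians were 66.1% for 12 amacrine genes, 84.3% for 12 ON bipolar genes, 97.7% for 10 rod genes and 103% for all genes tested, while they were 268% for 10 microglial genes and 12.96% for 8 pigment epithelial genes. These percentages were computed after this library had been seen to stand apart, and they are descriptions with no test.

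**Figure D2:**
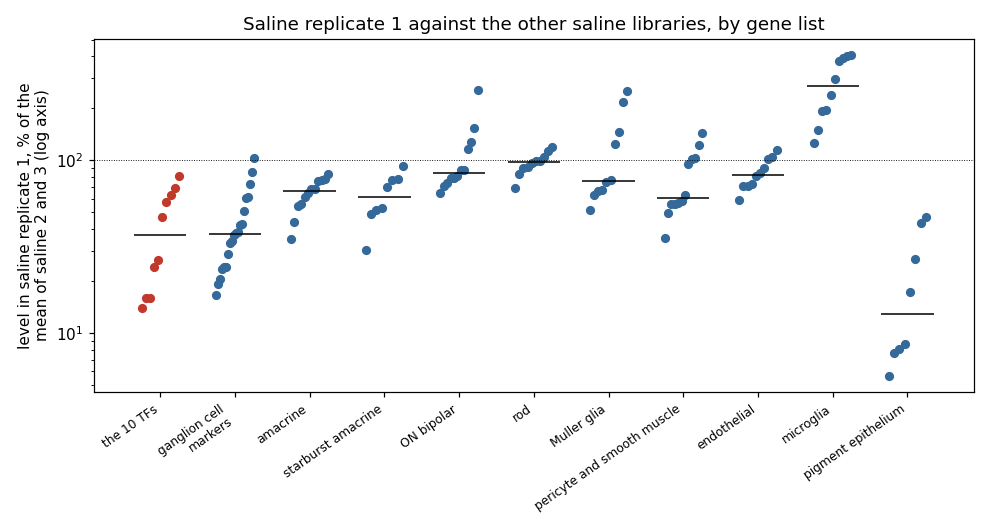
CPM in saline replicate 1 as a percentage of the mean of saline replicates 2 and 3, on a log axis, for each gene of the 10 transcription factors (red) and of lists of retinal cell markers (blue), with lines at the list medians and a dotted line at equality. The transcription factors run from 13.96% to 80.7%, beside a median of 37.4% for the other RGC markers, 97.7% for rod genes and 268% for microglial genes.

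Without saline replicate 1, no member passed the test either. With edgeR, 0 of 10 members had an adjusted p under 0.05, beside 15.1% of the 17321 genes then tested, and 1 of 10, *Ebf1*, had an unadjusted p under 0.05, beside 33.2% of those genes (log2 fold change of *Ebf1* -0.46, edgeR adjusted p = 0.118). The log2 fold changes of 3 members changed sign, that of *Pou4f2* from 0.06 to -0.42 (adjusted p = 0.306), that of *Pou4f3* from 0.26 to -0.23 (adjusted p = 0.671) and that of *Irx2* from 0.12 to -0.36 (adjusted p = 0.527). *Pou4f1* went from -0.04 to -0.47 on the log2 scale (adjusted p = 0.172). Positive values shrank, to 0.32 for *Eomes*, 0.19 for *Satb1*, 0.16 for *Tbr1*, 0.13 for *Ebf3* and 0.08 for *Isl1*, with adjusted p from 0.517 to 0.851. The median of the members went from 0.22 to -0.08. For *Pou4f1*, *Pou4f2*, *Ebf1* and *Irx2*, every microbead library lay below both remaining saline libraries, which is 4 of 10 members beside 26.5% of all genes tested, and for 0 of 10 members beside 24.4% of genes did every microbead library lie above them.

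Without saline replicate 3 the log2 fold changes of all 10 members moved up, that of *Pou4f1* to 0.40, that of *Pou4f2* to 0.56 and that of *Pou4f3* to 0.79, with edgeR adjusted p from 0.433 to 0.573. *Eomes* then had a log2 fold change of 1.21 (edgeR adjusted p = 0.122) and *Ebf3* one of 0.65 (edgeR adjusted p = 0.158). These were the 2 of 10 members at an unadjusted p under 0.05, beside 27.4% of the genes tested in that fit, and no member passed. *Isl1* depended most on the microbead libraries, with a log2 fold change of 0.02 without microbead replicate 1 and 0.34 without microbead replicate 3. The directions of *Isl1*, *Ebf1*, *Ebf3*, *Eomes*, *Tbr1* and *Satb1* were kept whichever library was left out.

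**Figure D3:**
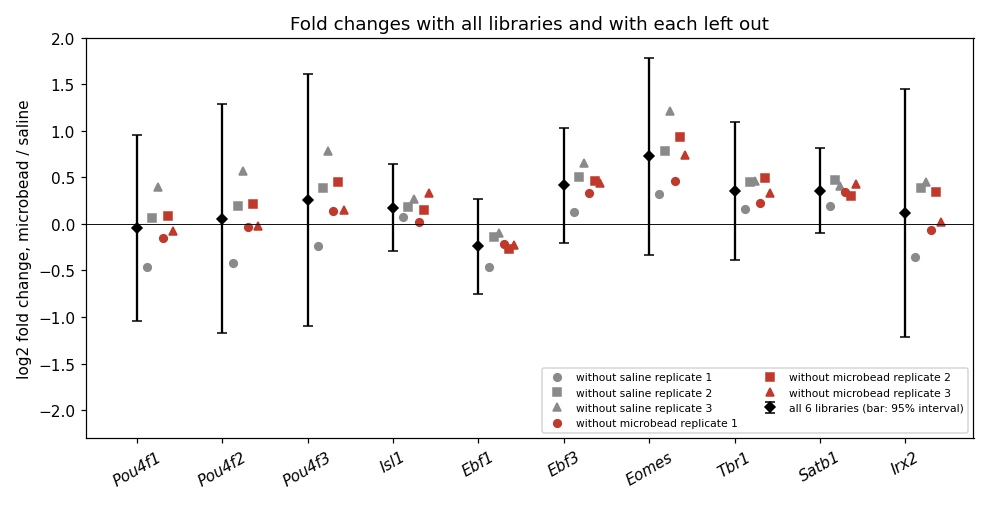
Log2 fold change of each transcription factor, microbead over saline, with all 6 libraries (black, bars: 95% intervals of edgeR's quasi-likelihood fit) and with each library left out (grey for a saline and red for a microbead library). Every interval includes 0, and without saline replicate 1 (grey circles) the values of the Pou4f genes and *Irx2* lie between -0.23 and -0.47.

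To set the members against other genes known from RGCs, each was divided by the summed CPM of the 20 RGC markers in its library. Some members are also made in other retinal cells, so the ratio is not a level per RGC. The markers themselves went both ways, with log2 fold changes from 1.33 for *Sncg* to -0.61 for *Cartpt*. *Eomes* was at 3.17, 4.31 and 4.98 CPM per 1000 CPM of markers in saline and at 7.59, 5.35 and 6.07 in microbead retina, and was the one member whose groups did not overlap. This is 1 of 10 members, beside 19.7% of all genes tested on the same scale. The mean ratio of *Eomes* was 4.15 ± 0.912 in saline and 6.33 ± 1.145 in microbead retina (SD, n = 3), a log2 difference of 0.62 (two-sided exact permutation p = 0.1, the smallest that 3 against 3 libraries can give). With that smallest p the test could not pass 0.05 for any member.

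*Pou4f1* was at 13.9, 22.0 and 23.3 CPM per 1000 CPM of markers in saline and at 18.3, 17.8 and 18.1 in microbead retina, values of the latter that lay within a narrow band. *Pou4f2* showed the same arrangement, at 2.77, 6.54 and 6.998 in saline and 5.56, 5.25 and 5.93 in microbead retina. Relative to the sum of the 20 RGC markers, then, saline replicate 1 remained the lowest library for *Pou4f1* and *Pou4f2*, as it did for *Pou4f3*, *Irx2* and *Eomes*. The markers themselves were at 16.5% to 103% of the other saline libraries there, with *Jam2*, 122 of the 778 CPM, at 85.6%. *Pou4f1*, at 24.0%, was level with *Rbpms* at 24.2% and *Nefm* at 24.1%. A low ratio there thus does not mean a fall beyond that of each marker. The same division put *Isl1* at 86.5 in saline replicate 1 and at 45.3 and 39.5 in the other saline libraries, and *Satb1* at 25.7, 17.2 and 12.7 in the saline libraries. For *Isl1*, *Ebf1*, *Tbr1* and *Satb1* it was thus the highest library. In saline replicates 2 and 3 alone against the microbead libraries, 5 of 10 members did not overlap, beside 43.5% of all genes tested: *Pou4f1* and *Pou4f2* had lower and *Ebf3*, *Eomes* and *Tbr1* higher ratios after microbead injection. This count was 2 of 10 without saline replicate 3, beside 33.1% of all genes tested, and 2 of 10 without microbead replicate 2, beside 31.8%.

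**Figure D4:**
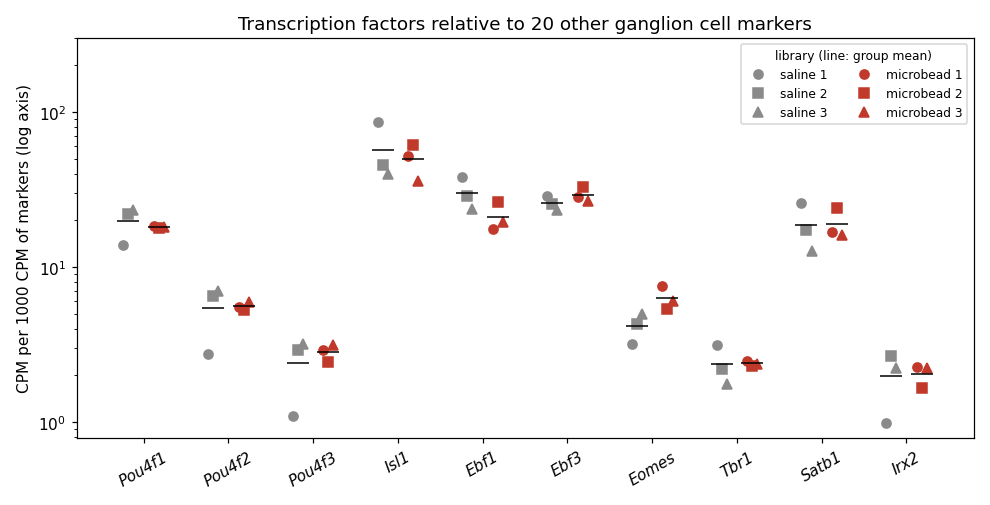
Each transcription factor's CPM per 1000 CPM of 20 other RGC markers in the same library, on a log axis, for saline (grey) and microbead (red) libraries with lines at the group means (n = 3 each). *Eomes* alone has groups that do not overlap (4.15 ± 0.912 against 6.33 ± 1.145), and *Pou4f1* lies between 17.8 and 18.3 in the microbead libraries.

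Levels of the members were compared over the 6 libraries with those of 15088 genes at a mean of at least 1 CPM, by the root mean square (RMS) difference of centred log2 CPM. Of all genes compared, *Pou4f2* and *Pou4f3* were the nearest to each other, at an RMS difference of 0.13, and *Pou4f2* was the nearest to *Irx2*, at 0.148. For *Pou4f1* the nearest gene outside the members was *Nefm*, a neurofilament subunit, at 0.0779. *Ebf1* was most like *Kcnj5*, a potassium channel gene, at 0.0437, and *Ebf3* most like *Kcnip1*, a potassium channel partner, at 0.0851. The nearest genes outside the members were *Serpinb8* for *Pou4f2* (0.144) and *Pou4f3* (0.184), *Nrn1* for *Irx2* (0.223), *Cyp2s1* for *Eomes* (0.139), *Pdcd10* for *Isl1* (0.0637), *Ica1* for *Tbr1* (0.0605) and *Far2* for *Satb1* (0.063). All these comparisons rest on the same 6 libraries, of which saline replicate 1 spans most of the range for the Pou4f genes and *Irx2*, and a gene that varies little has less room to differ.

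Other transcription factors known from RGCs or their formation were looked at beside the members. Of 26 such genes 23 were tested, and *Atoh7*, *Dlx1* and *Dlx2* had too few counts. By edgeR 2 of 23 were lower and 1 higher after microbead injection, 3 in all, a share close to the 12.8% of all genes tested, and their median log2 fold change was -0.32. *Sox4*, which acts in RGC formation and axon growth, was at 9.69, 12.6 and 15.9 CPM in saline and 3.71, 5.99 and 5.59 CPM in microbead retina (log2 fold change -1.33, SE 0.29; edgeR adjusted p = 0.0235). *Onecut2*, a factor of RGC and horizontal cell formation, was at 13.9, 12.8 and 9.50 CPM in saline and 2.62, 6.14 and 5.39 CPM in microbead retina (log2 fold change -1.36, SE 0.34; edgeR adjusted p = 0.0335). *Ebf4*, a relative of *Ebf1* and *Ebf3*, was at 11.2, 10.7 and 9.67 CPM in saline and 13.5, 20.4 and 22.2 CPM in microbead retina (log2 fold change 0.83, SE 0.24; edgeR adjusted p = 0.0482). Saline and microbead libraries did not overlap for any of these 3, as for 37.8% of all genes tested. Horizontal cell genes, 5 in number, summed to 458 to 609 CPM in saline and 462 to 557 CPM in microbead retina. Most of that sum was *Prox1* and *Tfap2b*, at means of 220.7 and 227.3 CPM in saline and 177.5 and 255.5 CPM in microbead retina. The median log2 fold change of the 5 was -0.61, with *Onecut1* at -1.42, *Lhx1* at -0.97, *Calb1* at -0.61, *Prox1* at -0.31 and *Tfap2b* at 0.17. By edgeR 0 of 5 were called, beside 12.8% of all genes tested. At an unadjusted edgeR p under 0.05 the count was 2 of 5, beside 31.4% of all genes tested. The part of horizontal cells in the *Onecut2* level was not tested.

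Without saline replicate 1, *Sox4* (adjusted p = 0.0135), *Onecut2* (adjusted p = 0.0450) and *Tbx20* (log2 fold change -2.07, adjusted p = 0.0257) were among the transcription factors called lower by edgeR. Of the 22 then tested 0 were higher, with *Ebf4* at an edgeR adjusted p of 0.0546. In that fit 15.1% of all genes were called in either direction. *Tbx20*, which marks an RGC subset, had been lowest in saline replicate 1 among the saline libraries, at 0.319 against 2.45 and 3.59 CPM. The count of 3 fell to 0 without saline replicate 2, microbead replicate 2 or microbead replicate 3, and to 1 without microbead replicate 1. Calls over all genes fell in these fits too, from 2261 of 17707. They were 293 of 17424 without saline replicate 2 and 768 of 19138 without microbead replicate 2. Without microbead replicate 3 they were 46 of 19313, and without microbead replicate 1 they were 748 of 19211.

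Among the 20 RGC markers that are not transcription factors, 0 passed edgeR's test and 5 had an unadjusted p under 0.05, beside 31.4% of all genes tested. Of these 5, *Sncg*, *Rbpms2*, *Penk* and *Jam2* were higher after microbead injection, with log2 fold changes of 1.33, 0.97, 0.94 and 0.37. *Cartpt* was lower, at -0.61. *Rbpms* was at 8.55, 31.8 and 38.9 CPM in saline and 40.6, 38.9 and 50.2 CPM in microbead retina (log2 fold change 0.71, SE 0.44; edgeR adjusted p = 0.298). *Slc17a6* was at 15.4, 69.4 and 91.0 CPM in saline and 52.8, 50.3 and 46.6 CPM in microbead retina (log2 fold change -0.23, SE 0.49; edgeR adjusted p = 0.783). Like *Pou4f1* and 26.5% of all genes tested, *Slc17a6* had every microbead library below saline replicates 2 and 3, whereas *Rbpms* did not. Without saline replicate 1, *Slc17a6* (log2 fold change -0.69, edgeR adjusted p = 0.0460) and *Nefl*, the light neurofilament subunit (log2 fold change -0.82, edgeR adjusted p = 0.0393), were lower, and 0 of 20 were higher, 2 of 20 beside 15.1% of all genes called in that fit. *Rbpms2* and *Sncg* had log2 fold changes above 0 there, at 0.58 (edgeR adjusted p = 0.120) and 0.89 (edgeR adjusted p = 0.0523).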

How the data were processed

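RNA sequencing of poly(A)-enriched libraries covered whole retina of 3 saline-injected and 3 microbead-injected C57BL/6 samples, and groups were set from the sample labels. Per the study's methods, RNA with an integrity value above 6 was made into stranded libraries, and reads were aligned to GRCm38.p5 with STAR 2.5.3a and the GENCODE vM12 annotation and counted with featureCounts 1.15.2. The strand setting and the handling of reads with several matches are not given in the sources used here. The authors deposited the raw counts of 31169 genes per library, without normalization. The same table holds their DESeq2 1.14 comparison (mean normalized count, log2 fold change, linear fold change, p-value, adjusted p-value and calls), which was not used. Columns of per-sample values left unused numbered 0.

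Counts passing filterByExpr (at least 10 counts, 15 in total) were scaled by TMM and compared, two-sided, in R 4.3.3 by the quasi-likelihood test (edgeR 4.0.16), with Benjamini-Hochberg adjustment over all 17707 genes tested and a threshold of 0.05. CPM are counts per 1000000 after TMM scaling of library sizes, and RPKM are CPM per kilobase of merged exons in GENCODE vM21, whose GRCm38 coordinates are given. Ratios to markers were compared on the log2 scale with an exact permutation test. The study counts its RNA sequencing samples as retinas, and the labels do not say whether those of a group came from separate animals, so p-values measure the spread between these samples, which may be technical. Alternatives were DESeq2 1.42.0, limma-voom (limma 3.58.1), the replicate number as a block, scaling by RLE, by upper quartile, by total counts or by totals that leave out the 100 most abundant genes, counts thinned to the smallest total, an adjusted p under 0.01, omission of the filter or a minimum of 10 counts in each library, and leaving out each library. The fits were tested on simulated data.

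The members and gene lists were chosen with earlier results of these data known. The genes named are the 10 members, the other transcription factors past the threshold, *Rbpms*, *Slc17a6* and RGC markers past it, and for each member the gene most like it over the 6 libraries. Genes of other cell types, *Vtn*, overlapping genes, RGC markers named at an unadjusted p and those named only without saline replicate 1 were chosen after their values were seen. A result of the wider transcription factor list is not reported here.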

Additional observations from a re-analysis of the deposited data

How the results depend on the processing

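The call of 0 of 10 members was the same under all 10 alternatives with 6 libraries and in the 6 fits without 1 library, and of 160 alternative fold changes of members 145 kept their direction and 15 did not. Adjusted p of members over these fits ran from 0.118, for *Ebf1*, to 1.0, for *Pou4f2*. Values of *Pou4f1* and *Pou4f2*, close to 0, turned with small changes: the log2 fold change of *Pou4f1* was 0.0040 with upper-quartile scaling, 0.043 with library sizes without the 100 most abundant genes, 0.028 after thinning and 0.23 with limma-voom, and that of *Pou4f2* was 0 with no filter. Leaving out each library gave log2 fold changes of -0.47 to 0.40 for *Pou4f1*, -0.42 to 0.56 for *Pou4f2*, -0.23 to 0.79 for *Pou4f3* and -0.36 to 0.45 for *Irx2*. For the ratios to RGC markers it gave log2 differences of -0.32 to 0.048 for *Pou4f1*, -0.28 to 0.39 for *Pou4f2*, -0.11 to 0.66 for *Pou4f3*, -0.37 to 0.19 for *Isl1*, -0.13 to 0.28 for *Tbr1*, -0.18 to 0.33 for *Satb1* and -0.27 to 0.45 for *Irx2*, and 1 to 5 members whose groups did not overlap. Over all genes, 2261 were called, against 3720 with no filter, 3621 with DESeq2, 87 at an adjusted p under 0.01 and 46 (without microbead replicate 3) to 2621 (without saline replicate 1) when a library was left out. Of the other transcription factors, 3 were called, against 0 at an adjusted p under 0.01 and 0 to 4 with a library left out. A stricter threshold can only keep or lower a count, and the cause of the other changes was not tested.

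Deviations of libraries with the same replicate number correlated at -0.04, 0.14 and 0.01, so the numbers were not taken as pairs. With the replicate block, 905 genes, 0 members and 1 of the other transcription factors were called, and the log2 fold change of *Pou4f1* was 0.18. Every member was counted at least 29 times in each library, so each was above the limit that a count of 0 allows.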
